A study of Mus musculus with 24 samples.

Results

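The hemidesmosome and basement membrane anchorage genes are 9 genes whose proteins fasten epithelial cells to the basement membrane: Col17a1, Itgb4, Itga6, Itga3, Fermt1, Col7a1, Lama3, Lamb3 and Lama5. They were chosen by name, with earlier results of these data known, and every probe annotated to one of these symbols was read. The arrays' annotation used here gave 15 probes for 8 of the 9 genes, and Lama3 was not analysed here. Of the 15 probes, 12 were detected on at least 3 arrays, and all 8 genes were tested, among 12698 genes in all. Each gene was read on its brightest detected probe, with its other probes as a check.

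Basal epithelial cells hold on to the basement membrane through hemidesmosomes, in which integrin alpha 6 beta 4 and the transmembrane collagen XVII bind a laminin of alpha 3, beta 3 and gamma 2 chains outside the cell and keratins, through plectin and BP230, inside it. Collagen VII forms the anchoring fibrils that tie the basement membrane to the connective tissue below, and kindlin-1, the Fermt1 product, activates integrins of epithelial cells. p63 is the transcription factor that stratified epithelia need in order to form. Loss of several of these anchorage genes causes skin blistering in humans.

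RNA from single mandibular prominences, the paired swellings that form the lower jaw, was hybridised to 24 Illumina mouse bead arrays, 1 embryo to an array. There were 8 groups of 3: p63-/- and p63+/- embryos at each of E10, E11, E12 and E13. Both genotypes came from the strain B6.129S7-Trp63tm2Brd/J, so the p63+/- embryos also carried 1 mutant p63 allele, and no group here was wild type. The p63-/- embryos carry the p63 mutation from the germ line, not in the epithelium alone. Per the series' design text, the 3 embryos in a group were taken from separate litters, without pooling.

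Values are normalized log2 intensities, and a probe counts as detected where its detection p-value is under 0.05. Trp63, the mutated gene, read 8.97 to 9.89 on the 12 p63-/- arrays and 10.19 to 11.32 on the 12 p63+/- arrays, with no overlap. It was detected on all 12 arrays of each genotype. Where its probe lies relative to the mutation was not analysed here. The mandibular mesenchyme markers were detected on all 24 arrays (9 of 9 genes), and none of the 9 passed the test for genotype averaged over stages (1 at an unadjusted p under 0.05). Of all 12698 genes, 1290 had an unadjusted p under 0.05 in this test. The pan-epithelial list moved with genotype: 6 of 12 tested genes were higher in p63-/- prominences and 0 lower, and the list's summed intensity ran from 13712 to 44473 in p63-/- and from 6341 to 18176 in p63+/- prominences. The highest p63-/- sum was p63-/- replicate 3 of E10, and without that array no sum was over 26875. Bright genes weigh most in this linear sum. Among them, Cldn6 averaged 12.41 in p63-/- and 11.44 in p63+/- prominences, and Krt8 12.39 and 10.55, both called higher. The list's cadherin gene Cdh1 differed by 0.11 and Grhl2 by 0.08, and neither passed. Epcam did not pass the detection filter. None of the tested genes of the endothelial (7), neuronal (7), Schwann (2), muscle (5), erythroid (5), macrophage (5) and yolk sac (9) lists passed in the average over stages, nor had any of them an unadjusted p under 0.05. Sox10, a marker of the Schwann and crest lineage named here after its values were seen, was not detected on any p63-/- array at E10 (5.61, 4.87 and 5.39) and was detected on all p63+/- arrays (7.42, 7.18 and 7.08), at least 3.05-fold lower (adjusted p = 0.0517), and the summed intensity of its list at E10 was 58.0 to 78.9 in p63-/- and 165 to 197 in p63+/- prominences. Of the 2 genes in this sum, only Sox10 was detected at E10, in p63+/- prominences, so the sum mainly repeats its values. Sox10 overlapped between the genotypes at E11, E12 and E13. A single library stood apart, p63-/- replicate 3 at E10. It detected 9 of 9 yolk sac endoderm markers at a summed intensity of 143739, against 533 to 3956 on the other arrays, and Afp read 13.77 on it. The part of these marker lists in the results below was not tested.

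In the average over the 4 stages, Col17a1, Fermt1, Itgb4 and Col7a1 were lower in p63-/- than in p63+/- prominences, and no anchorage gene was higher, also at an unadjusted p under 0.05. The 4 lower genes of 8 tested stand beside 1.00% of all 12698 genes that were called lower, 1.35% called higher and 2.35% called in either direction (limma, Benjamini-Hochberg adjusted p under 0.05). As the genes were chosen with earlier results of these data known, these shares are no test of enrichment. Lamb3, Itga3, Itga6 and Lama5 did not pass. Without p63-/- replicate 3 of E10, the array with the yolk sac markers, 4 of 8 were again lower on average. The median difference of the 8 genes was -0.58, against -0.01 for all genes. In RNA from whole prominences, fewer epithelial cells and less RNA per cell cannot be told apart.

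Taken stage by stage, 1 of 8 genes was called lower at E10 and at E11, and 3 of 8 at E12 and at E13, with 0 called higher at any stage and 0 higher at an unadjusted p under 0.05. The shares of all genes called lower were 0.488% at E10, 0.260% at E11, 0.173% at E12 and 0.165% at E13, and the shares called higher were 0.307%, 0.252%, 0.126% and 0.142%. All 3 p63-/- arrays lay below all 3 p63+/- arrays for 3 genes at E10 (Col17a1, Col7a1, Fermt1), 4 at E11 (Col17a1, Itgb4, Fermt1, Lamb3), 3 at E12 (Col17a1, Itgb4, Fermt1) and 6 at E13 (these 3 with Col7a1, Lamb3 and Itga3). The same held for 11.4%, 4.32%, 3.52% and 3.97% of all genes at these 4 stages. No anchorage gene had all its p63-/- arrays above its p63+/- arrays at any stage, which 6.82%, 5.13%, 3.43% and 3.91% of all genes did.

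**Figure D1:**
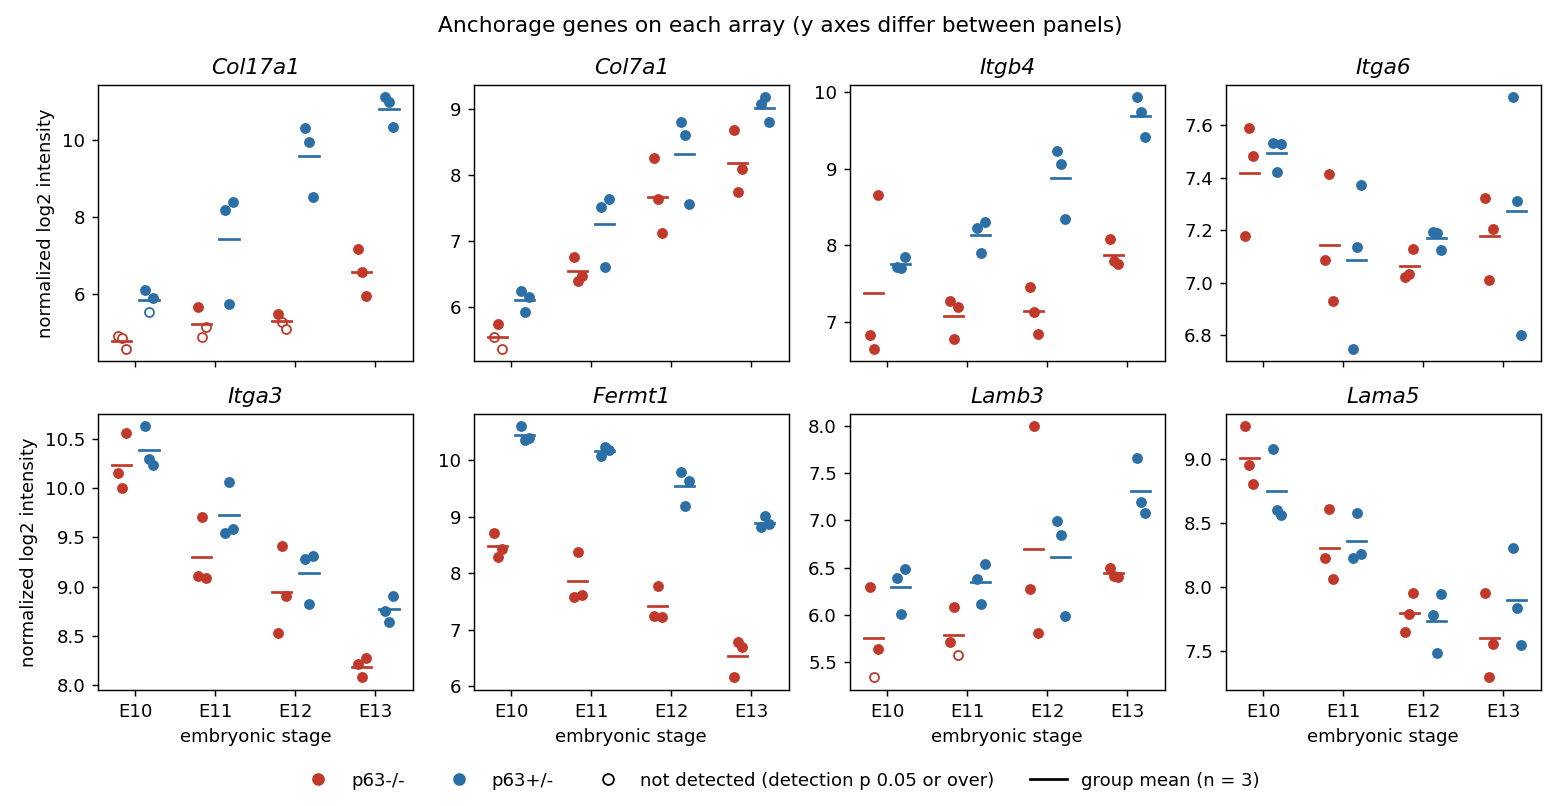
Normalized log2 intensity (y axis, scale differs by panel) of 8 anchorage genes on each of 24 arrays by embryonic stage (x axis), with p63-/- in red left of p63+/- in blue; open circles were not detected and lines are means of 3 arrays. Fermt1 separates the genotypes at every stage, the gap of Col17a1 is widest at E12 and E13, and Itga6 and Lama5 overlap at every stage.

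**Figure D2:**
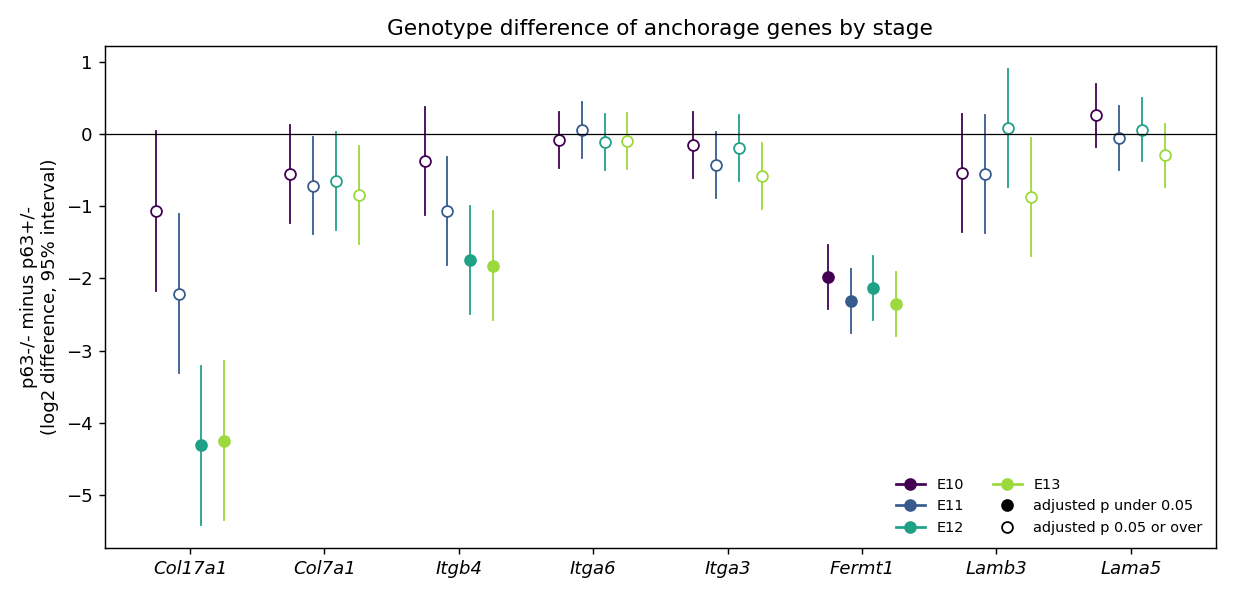
Difference p63-/- minus p63+/- (y axis, log2, with 95% intervals from the limma fit) of each anchorage gene at E10, E11, E12 and E13; filled points have an adjusted p under 0.05. Fermt1 is filled at all 4 stages, and Col17a1 and Itgb4 at E12 and E13.

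Col17a1 encodes collagen XVII, the transmembrane collagen of the hemidesmosome. Its promoter window and that of Fermt1 (RefSeq, GRCm38.p6, from 250 bases before to 50 after the gene start, 5′ to 3′ on the gene's strand) are shown because these genes had the largest average differences of the 8 and unlike courses over the stages. The Col17a1 window is chr19:47691993-47692292 on the minus strand, and the Fermt1 window is chr2:132945987-132946286 on the minus strand. Capitals mark a match to the p53-family half-site, the sequence class that p63 recognises.
Col17a1: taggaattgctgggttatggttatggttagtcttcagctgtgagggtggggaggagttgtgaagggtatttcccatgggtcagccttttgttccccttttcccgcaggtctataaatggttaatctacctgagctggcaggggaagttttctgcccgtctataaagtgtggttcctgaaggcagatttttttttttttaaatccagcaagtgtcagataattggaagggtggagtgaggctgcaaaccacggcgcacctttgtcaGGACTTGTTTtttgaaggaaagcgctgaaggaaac
Fermt1: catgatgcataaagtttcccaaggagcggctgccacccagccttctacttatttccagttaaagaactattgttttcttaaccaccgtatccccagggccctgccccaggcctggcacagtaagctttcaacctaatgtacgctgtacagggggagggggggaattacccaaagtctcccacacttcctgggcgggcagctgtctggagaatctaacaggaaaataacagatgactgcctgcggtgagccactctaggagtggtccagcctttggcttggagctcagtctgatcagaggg

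On both strands, the Col17a1 window held 1 p53-family half-site, at bases 16 to 25 after the gene start counted as base 1, and 2 copies of TATAAA. The Fermt1 window held 0 half-sites and 1 copy of GGGCGG. Of 32851 promoter windows of this length, 8.36% held a half-site, 13.6% TATAAA and 35.7% GGGCGG. The other windows looked up, for Col7a1, Lamb3, Lama5 and Itga3, held 0 half-sites. Windows were read for 6 of the 9 genes, 8 windows in all, and TGAGTCA, the AP-1 element, was in none of the 8, against 5.2% of all windows. A match or its absence is a description of these letters only.

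At E10, the Col17a1 probe read 4.91, 4.87 and 4.58 on the p63-/- arrays, none detected, and 6.10, 5.54 and 5.91 on the p63+/- arrays, 2 of 3 detected. At E11 it read 5.67, 4.88 and 5.16 in p63-/- (1 of 3 detected), against 8.19, 5.75 and 8.39 in p63+/- prominences. At E12 it read 5.49, 5.28 and 5.11 in p63-/- (1 of 3 detected), against 10.33, 9.96 and 8.53 in p63+/- prominences. The p63-/- arrays thus stayed near the detection limit through E12, and at every stage each of them was below each p63+/- array of that stage. At E13 all 3 p63-/- arrays detected it, at 7.17, 6.58 and 5.96, against 11.11, 10.99 and 10.34 in p63+/- prominences.

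The difference of Col17a1 was -1.06 at E10 (SE 0.53, adjusted p = 0.376), where the bound set by the detection limit is at least 1.18-fold lower in p63-/-. It was -2.21 at E11 (adjusted p = 0.0758), -4.31 at E12 (adjusted p = 1.56e-04) and -4.24 at E13 (adjusted p = 1.82e-04), with the same SE. The E13 value, detected on all 6 arrays, corresponds to 18.9-fold lower intensity. With the undetected p63-/- arrays raised to their detection limit, it was at least 17.3-fold lower at E12 and at least 3.40-fold lower at E11. On average it was -2.96 (SE 0.26, adjusted p = 5.70e-07), at least 6.01-fold lower, with 5 of 12 p63-/- and 11 of 12 p63+/- arrays detected. The E11 difference passed without the p63+/- array that read 5.75 (-3.06, adjusted p = 0.000666) and without p63+/- replicate 3 of E12 (-2.21, adjusted p = 0.0430). It also passed with array weights (-2.55, adjusted p = 0.00765) and with same-numbered p63-/- and p63+/- replicates of a stage treated as blocks (-2.21).

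In order of level, Col17a1 was highest in p63+/- prominences at E13 (10.81 ± 0.41, SD, n = 3), then at E12 (9.60 ± 0.95) and E11 (7.45 ± 1.47). Next came p63-/- at E13 (6.57 ± 0.60), whose arrays overlapped both the E11 and the E10 p63+/- arrays (5.85 ± 0.29 at E10). The p63-/- groups of E12 (5.30 ± 0.19), E11 (5.23 ± 0.40) and E10 (4.79 ± 0.18) were last, and neighbours among these 3 overlapped. The genes whose 8 group means followed Col17a1 most closely were Krt14, Krt5 and Krt17, keratins of basal and stratified epithelium. Their root-mean-square distances from it, after centring, were 0.74, 0.86 and 1.05, against a median of 2.08 over 12697 genes. Krt5 was not detected on any E10 array.

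Both other Col17a1 probes gave the same direction. The next brightest probe differed by -2.32 on average (adjusted p = 1.07e-07) and passed at E11 as well (-1.95, adjusted p = 0.0193). The dimmest was not detected on any of the 12 p63-/- arrays and was at least 2.04-fold lower on average (adjusted p = 3.01e-06, 8 of 12 p63+/- arrays detected) and at least 6.65-fold lower at E13.

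Itgb4 encodes integrin beta 4, which pairs only with integrin alpha 6 and nucleates the hemidesmosome. At E12 it read 7.45, 7.13 and 6.84 in p63-/-, against 9.24, 9.06 and 8.35 in p63+/- prominences. At E13 it read 8.08, 7.80 and 7.75 in p63-/-, against 9.93, 9.74 and 9.42 in p63+/- prominences. The groups did not overlap at either stage, nor at E11, where p63-/- arrays read 7.27, 6.78 and 7.20, against 8.23, 7.89 and 8.30. The differences were -1.74 at E12 (SE 0.36, adjusted p = 0.0393) and -1.82 at E13 (adjusted p = 0.0251), 3.34-fold and 3.53-fold lower, and -1.06 at E11 (adjusted p = 0.426).

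The E10 values of Itgb4 were 6.83, 6.65 and 8.66 in p63-/- and 7.71, 7.71 and 7.85 in p63+/- prominences. The high p63-/- value is replicate 3, the array with the yolk sac markers, and the gene's other probe was high on it too (7.53, against 5.70 and 5.65). With this array the E10 difference was -0.38 (adjusted p = 0.696), and without it -1.02 (adjusted p = 0.0363). Leaving it out also moved E11 past the threshold (-1.06, adjusted p = 0.0160).

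Averaged over stages, Itgb4 differed by -1.25 (SE 0.18, adjusted p = 2.17e-04) on the brighter probe and by -1.09 (adjusted p = 0.00162) on the other, which passed at no single stage. The nearest genes in the 8 group means were Pkp1, which encodes a desmosomal plakophilin, Wnt7a, a Wnt ligand, and Catsperz (0.36, 0.40 and 0.40, median of all genes 0.88), and none of these was among the nearest 3 with the authors' processed values. At E10 both group means of Pkp1 and Wnt7a, and the p63-/- mean of Catsperz, were under 5.51, the lowest detected signal of the E10 arrays. The single-stage calls of Itgb4 were close to the threshold. The E13 call was lost without any 1 of the 6 E13 arrays (adjusted p up to 0.175). The E12 call was kept without any 1 of E10 p63-/- replicates 1, 2 and 3, E11 p63-/- replicate 2, E11 p63+/- replicate 2, E12 p63+/- replicate 3 and E13 p63-/- replicate 3, and was lost without any 1 of the other 17 arrays (adjusted p up to 0.243).

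Itga6 encodes integrin alpha 6, the partner of integrin beta 4 that also pairs with integrin beta 1. It was detected on all 24 arrays and read between 6.93 and 7.59 in p63-/- (median 7.15) and between 6.75 and 7.71 in p63+/- prominences (median 7.25). All 8 groups overlapped their neighbours in order of level. Its average difference was -0.06 (95% interval -0.25 to 0.14, adjusted p = 0.907), and no stage passed. The next probe, which also passed the detection filter, differed by -0.16, and the dimmest was not detected on any array.

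**Figure D3:**
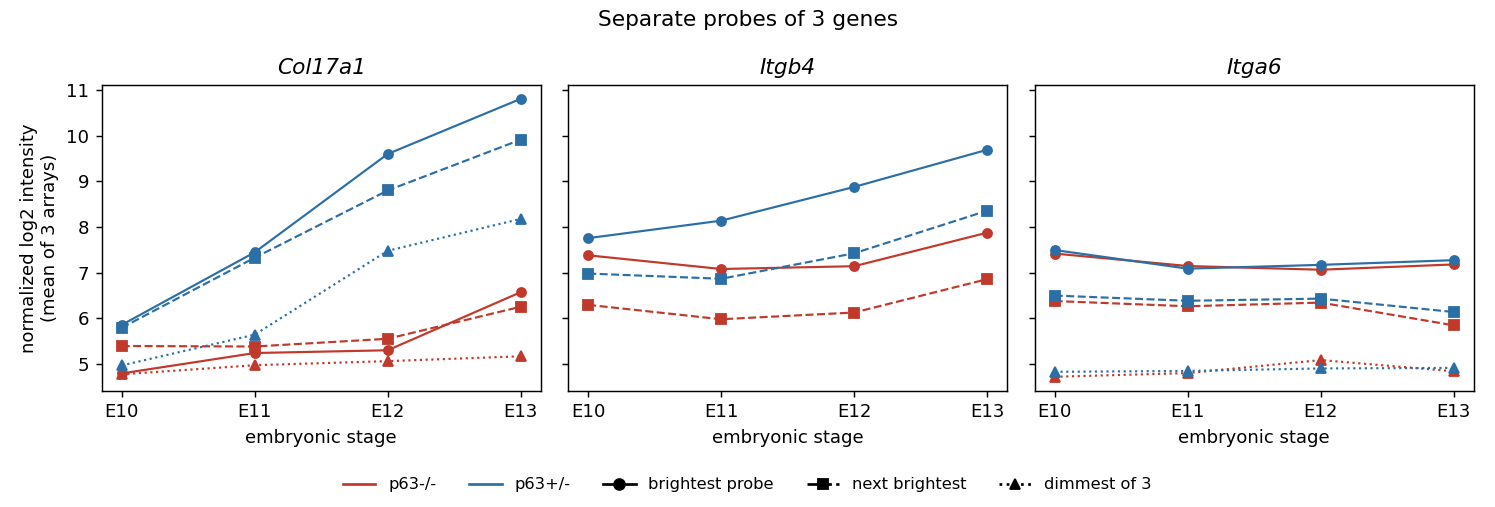
Mean normalized log2 intensity of 3 arrays (y axis) by stage (x axis) for each probe of Col17a1, Itgb4 and Itga6, p63-/- in red and p63+/- in blue; line styles mark the probes by brightness. The p63-/- lines of Col17a1 and Itgb4 lie below the p63+/- lines of the same probe at all 4 stages, whereas those of Itga6 run together.

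Col7a1 encodes collagen VII of the anchoring fibrils. Its 12 p63-/- arrays ranged from 5.36 to 8.68 (median 6.93, 10 detected) and its 12 p63+/- arrays from 5.92 to 9.17 (median 7.59, 12 detected). At E10 it read 5.53, 5.74 and 5.36 in p63-/- (1 of 3 detected, near the detection limit), against 6.24, 5.92 and 6.15 in p63+/- prominences. At E13 it read 8.68, 7.74 and 8.09 in p63-/-, against 9.07, 9.17 and 8.79. The genotypes did not overlap at these stages and did overlap at E11 and E12.

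The stage differences of Col7a1 were alike in size and none passed: -0.55 at E10, -0.71 at E11, -0.65 at E12 and -0.84 at E13 (SE 0.32). Their average was -0.69 (SE 0.16, adjusted p = 0.0243), 1.61-fold lower. This call was lost without any 1 of 7 arrays (replicate 2 of the E11 and of the E13 p63-/- groups, replicates 1 and 3 of E11 p63+/-, replicates 1 and 2 of E12 p63+/-, and replicate 2 of E13 p63+/-), with adjusted p up to 0.0541. With the authors' processed values the average was -0.29 (adjusted p = 0.0508). Its nearest genes were Osr1, Syt1 and Fst (0.24, 0.26 and 0.27, median of all genes 1.15), again none of them with the authors' values. At E10 both group means of Syt1 and Fst were under 5.51, the lowest detected signal of the E10 arrays. The second Col7a1 probe was not detected on any array.

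Fermt1 encodes kindlin-1, which binds the tails of beta integrins, and its difference was present from E10 on. At E10 it read 8.72, 8.29 and 8.43 in p63-/-, against 10.61, 10.37 and 10.39 in p63+/- prominences. At E11 it read 7.58, 8.37 and 7.63 in p63-/-, against 10.09, 10.24 and 10.19. The gap between the genotypes at each of these stages was wider than the range within either. At E12 it read 7.25, 7.77 and 7.23 in p63-/-, against 9.80, 9.20 and 9.64 in p63+/- prominences. At E13 it read 6.16, 6.78 and 6.69 in p63-/-, against 8.81, 9.02 and 8.87. All 12 p63-/- arrays, whatever their stage, lay below all 12 p63+/- arrays: the highest p63-/- value was 8.72 and the lowest p63+/- value 8.81.

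The differences of Fermt1 were -1.98 at E10, -2.31 at E11, -2.13 at E12 and -2.36 at E13 (SE 0.21), with adjusted p between 3.53e-06 and 2.77e-05, and 3.94-fold to 5.12-fold lower. The average was -2.19 (SE 0.11, adjusted p = 1.95e-10). Nearest to it in the 8 group means were Fam83f, Pltp and Ctsa at distances of 0.56, 0.67 and 0.67 (median of all genes 1.28), of which 1 was among the nearest 3 with the authors' processed values. At E13 the p63-/- mean of Fam83f (5.27) was under 5.35, the lowest detected signal of the E13 arrays. The second Fermt1 probe was not detected on any array, so the result rests on 1 probe.

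Lamb3 encodes the beta 3 chain of the laminin that is the ligand of integrin alpha 6 beta 4. It was detected on 10 of 12 p63-/- and 12 of 12 p63+/- arrays. At E13 it read 6.50, 6.41 and 6.40 in p63-/-, against 7.66, 7.19 and 7.08 in p63+/- prominences. At E11 it read 5.71, 6.09 and 5.58 in p63-/- (2 of 3 detected, near the detection limit), against 6.38, 6.12 and 6.54. The groups did not overlap at these stages, and the differences of -0.87 at E13 and -0.55 at E11 did not pass. At E12 p63-/- replicate 2 stood at 8.00 beside 6.27 and 5.81, against 6.99, 6.85 and 5.99 in p63+/- prominences. The average difference was -0.47 (SE 0.20, unadjusted p = 0.0269, adjusted p = 0.376). Without that 1 array it was -0.63 and passed (adjusted p = 0.0123), and the E12 difference was -0.57 in place of 0.09.

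Lama5 encodes the laminin alpha 5 chain, a main laminin of embryonic epithelial basement membranes. It ranged from 7.30 to 9.25 in p63-/- (median 8.01) and from 7.48 to 9.07 in p63+/- prominences (median 8.24), and the genotypes overlapped at every stage. The average difference was -0.01 (95% interval -0.23 to 0.21, adjusted p = 0.992), and no stage passed.

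Itga3 encodes integrin alpha 3, the laminin receptor of focal contacts outside hemidesmosomes. At E13 it read 8.21, 8.08 and 8.27 in p63-/-, against 8.76, 8.65 and 8.91 in p63+/- prominences, with no overlap, and the difference was -0.58 (SE 0.22, unadjusted p = 0.0151, adjusted p near 1.00). It overlapped at E10, E11 and E12. The average difference was -0.34 (SE 0.11, unadjusted p = 0.00597, adjusted p = 0.166), and without E12 p63-/- replicate 2 it was -0.40 and passed (adjusted p = 0.0480).

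Whether the genotype difference itself changed with stage was tested with an F test on all 24 arrays. None of the 8 genes passed, against 0.0158% of all genes (2 of 12698). An unadjusted p under 0.05 was reached by 2 of the 8, against 427 of all 12698 genes. For Col17a1, F was 9.16 (unadjusted p = 5.89e-04, adjusted p = 0.418), and for Itgb4 it was 3.56 (unadjusted p = 0.0339). Col17a1 passed with the authors' processed values (F 18.0, adjusted p = 0.0433), with array weights (F 13.2, adjusted p = 0.0233) and on its dimmest probe (F 18.4, adjusted p = 0.0470), which no p63-/- array detected. It did not pass on its next brightest probe (F 15.9, adjusted p = 0.0780). In all it passed in 2 of 10 alternative fits that kept all arrays, and in 0 of 24 that left out 1 array (lowest adjusted p = 0.0507). The other members had F between 0.14 and 1.21.

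Between E10 and E13 some anchorage genes were called higher and others lower, as were large shares of all genes. Col17a1 and Col7a1 were higher at E13 than at E10 in both genotypes, Itgb4 and Lamb3 were called higher in p63+/- prominences, Fermt1, Itga3 and Lama5 were lower in both genotypes, and Itga6 passed in neither. In p63-/- prominences 2 of 8 were called higher and 3 lower, and in p63+/- prominences 4 higher and 3 lower. Of all genes, 27.4% were called higher and 28.5% lower in p63-/-, and 25.3% higher and 28.0% lower in p63+/- prominences. The p63-/- counts are near these shares, and with 8 genes neither genotype's counts are read as a trait of the anchorage genes. Each slide held the 6 arrays of 1 stage, so that stage and slide cannot be told apart.

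Col7a1 differed between E13 and E10 by 2.62 in p63-/- (adjusted p = 2.19e-06) and by 2.91 in p63+/- prominences (adjusted p = 9.67e-07). The p63-/- difference of Col7a1 starts near the detection limit, with 1 of 3 E10 arrays detected. In p63-/- prominences Col17a1 was not detected on any E10 array and was at least 1.94-fold higher at E13 (fitted difference 1.78, SE 0.53, adjusted p = 0.00735), and in p63+/- prominences, with 2 of 3 E10 arrays detected, it differed by 4.96 (adjusted p = 6.07e-07). In p63-/- it was not called on the next brightest probe (0.86, adjusted p = 0.0562) or with the authors' processed values (0.37, adjusted p = 0.235), and the dimmest probe was not detected at either stage. Itgb4 differed by 0.50 in p63-/- (adjusted p = 0.248) and by 1.94 in p63+/- prominences (adjusted p = 1.63e-04). Without E10 p63-/- replicate 3 the Itgb4 value in p63-/- was 1.14 and passed (adjusted p = 0.000421).

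Lamb3 differed by 0.68 in p63-/- (adjusted p = 0.147) and by 1.02 in p63+/- prominences (adjusted p = 0.0352). The p63-/- value passed without E12 p63-/- replicate 2 (adjusted p = 0.0319), and the p63+/- call was lost without any 1 of E10 p63+/- replicates 1 and 2 and E13 p63+/- replicates 1 and 2 (0.84 to 1.08). Of the genes lower at E13, Itga3 differed by -2.05 in p63-/- and by -1.62 in p63+/- prominences. Fermt1 differed by -1.94 and by -1.56, and Lama5 by -1.40 and by -0.85. The adjusted p of these genes lay between 4.34e-07 and 0.00207. Lama5 and Itga3 thus showed marked differences between stages and none that passed between genotypes.

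**Figure D4:**
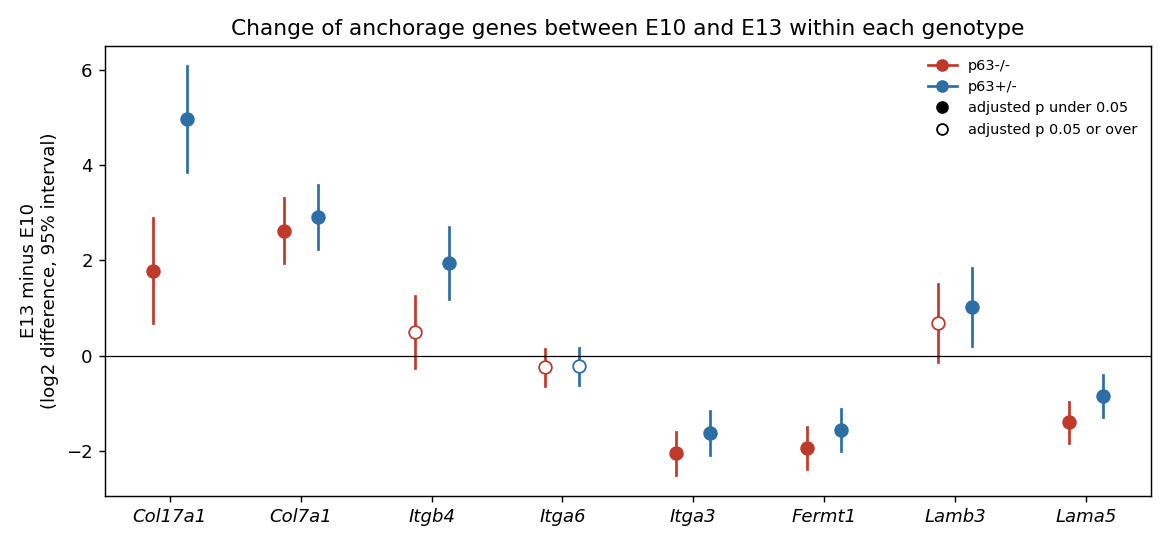
Difference E13 minus E10 (y axis, log2, with 95% intervals from the limma fit) of each anchorage gene within p63-/- (red, left) and p63+/- (blue, right) prominences; filled points have an adjusted p under 0.05. Col17a1, Col7a1, Itgb4 and Lamb3 lie above 0 in both genotypes, Fermt1, Itga3 and Lama5 below 0, and stage is confounded with slide.

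Of 49 other genes of cell-matrix attachment listed, 44 were tested. These lists too were chosen with earlier results of these data known, so the shares below are no test of enrichment. In the average over stages 3 were lower (6.82%, against 1.00% of all genes) and 1 higher (2.27%, against 1.35%), and the median difference of the 44 was -0.03. An unadjusted p under 0.05 in this average was reached by 1290 of all 12698 genes. Of the 5 genes of the hemidesmosome plaque and its partners, the keratins Krt14 and Krt5, which form the filaments of basal cells, were lower. Krt14 averaged 9.45 in p63-/- and 11.70 in p63+/- prominences (-2.24, adjusted p = 2.82e-06). Krt5 was detected on 1 of 12 p63-/- and 8 of 12 p63+/- arrays and was at least 2.26-fold lower (-1.70, adjusted p = 1.84e-05). The plakins Plec and Dst and the tetraspanin Cd151, which link the integrins to keratins or stabilise them, differed by -0.15, 0.09 and -0.02 and did not pass.

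None of the 7 other laminin chains passed, among them Lamc3 (-0.29, adjusted p = 0.379) and Lamb2 (0.10, adjusted p = 0.808), and 1 had an unadjusted p under 0.05. Of 8 other integrin chains, Itgb6, the beta chain of an epithelial receptor for fibronectin and latent TGF-beta, was higher. It averaged 7.86 in p63-/- and 7.27 in p63+/- prominences (0.59, adjusted p = 0.0113). Of the single stages only E11 passed (1.30, adjusted p = 0.0165). The differences were 0.46 at E10, 0.68 at E12 and -0.07 at E13. With the authors' processed values its average was 0.21 and did not pass (adjusted p = 0.105).

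None of the 8 kindlins, talins and linkers passed, and 1 had an unadjusted p under 0.05. Fermt2, the kindlin of most tissues, differed by -0.04, and Fermt3, the blood cell kindlin, by 0.25 (adjusted p = 0.663). Tln2, a talin, differed by 0.21 (adjusted p = 0.386) and passed without E10 p63-/- replicate 3 (0.27, adjusted p = 0.0466). It also passed in 1 of 10 alternative fits that kept all arrays (adjusted p = 0.0408). Of 12 basement membrane scaffold genes, Bcam, a laminin alpha 5 receptor, was lower. It averaged 8.05 in p63-/- and 8.45 in p63+/- prominences (-0.39, SE 0.06, adjusted p = 6.01e-04), with no single stage past the threshold. The collagen IV chains Col4a1 and Col4a2, the nidogens Nid1 and Nid2 and the perlecan gene Hspg2 did not pass (-0.07 to 0.18). In the Fraser complex, which holds embryonic epithelium to the mesenchyme, 0 of 4 passed or had an unadjusted p under 0.05, with Frem3 at 0.18 (adjusted p = 0.620) and Frem1 at -0.04 (adjusted p = 0.960).

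**Figure D5:**
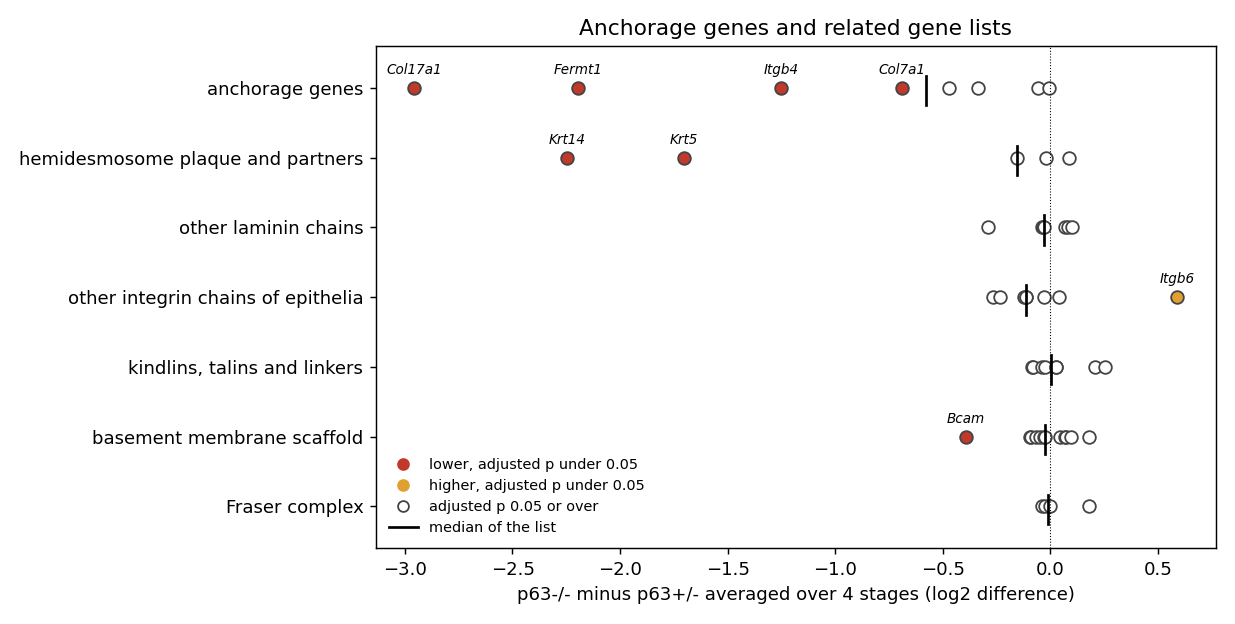
Average difference p63-/- minus p63+/- (x axis, log2) of the 8 anchorage genes and 44 related genes, a row for each list; red points are lower and yellow points higher with an adjusted p under 0.05, and vertical bars are list medians. Outside the anchorage genes, Krt14, Krt5 and Bcam are lower and Itgb6 is higher.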

How the data were processed

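Gene expression was measured in 24 mandibular prominences, a bead array for each. The authors deposited a table that holds, per the file headers, a linear-scale intensity and a detection p-value per probe and array (45281 probes), and a second table of the authors' processed log2 values, whose array medians lie between 7.92 and 7.93. Per the submitters' processing notes, the tools were BeadStudio, lumi and RMA. Their versions, roles and settings are not given in the sources used here.

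The intensities were background-corrected, quantile-normalized and put on a log2 scale with neqc of limma 3.58.1 in R 4.3.3 (offset 16). A probe was kept if 3 or more arrays detected it (detection p under 0.05; 24233 probes), and each of 12698 genes was read on its brightest kept probe. Arrays detected 43.4% to 49.0% of probes, and the number of arrays limits the precision. The fit, lmFit and eBayes with 8 group means on all 24 arrays (16 residual degrees of freedom), was tested on simulated data first. P-values were adjusted by Benjamini-Hochberg over all genes, with a threshold of 0.05. A bound, "at least N-fold", sets undetected arrays at the higher of the lowest detected signal of that array and the probe's own signal. Fold changes on this scale understate those of dim probes. Probe genes came from the platform annotation. Promoter windows came from RefSeq (GRCm38.p6); none was found for Itgb4 and Itga6.

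Each slide held 6 arrays of 1 stage. Genotypes were therefore compared within slides, but at E11, E12 and E13 p63-/- arrays held the first 3 positions of a slide and p63+/- arrays the last 3. The members and the gene lists were chosen with earlier results of these data known. The text names all members, list genes past the threshold or, where none passed, those with the smallest p, and for the 4 genes called on average the 3 genes with the nearest pattern. A few others were added after their values were seen. Alternatives covered normalization, offset, the authors' values, detection filter, probe rule, array weights, prior, replicate block, stage alone and leaving out each array.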

Additional observations from a re-analysis of the deposited data

How the results depend on the processing

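Of 272 repeats of the 8 members' average differences, 250 kept their direction and side of the threshold. The average calls of Col17a1, Fermt1 and Itgb4 were kept in every repeat run, as were those of Fermt1 at each stage. Unless a cause is given, the cause of a change was not tested. Quantile normalization without background correction gave Lama5 an average of 0.00279. The authors' processed values gave Lama5 0.0108, Col7a1 -0.29 (adjusted p = 0.0508), Col17a1 between E13 and E10 in p63-/- 0.37, 35 genes called at E11, and 1 member with an interaction (Col17a1, F 18.0). With an offset of 50, 4 genes had an interaction. Without a detection filter, when more genes were tested, 1 gene had an interaction and Itgb4 at E12 (-1.74) had an adjusted p of 0.0547. The mean of a gene's probes gave Itga6 -0.0313 at E11 and Itgb4 -1.52 at E12 (adjusted p = 0.0938).

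Array weights gave more calls: 295 genes at E10, 119 at E11, 62 at E12, 273 at E13, 600 on average and 67 for the interaction, against 101, 65, 38, 39, 298 and 2. Members called were then 2 at E10, 3 at E11 and 1 for the interaction. Under these weights Itgb4 passed at E10 (-0.90), at E11 (-1.15) and between E13 and E10 in p63-/- (0.96), Col17a1 at E11 (-2.55) and for the interaction (F 13.2), Col7a1 at E13 (-1.24) and Itga3 on average (-0.37), while Lama5 at E11 (0.0273), Lamb3 at E12 (-0.19) and Frem1 on average (0.0261) turned sign without a call. With every probe as a feature, 11011 features were called between E13 and E10 in p63-/- and 10519 in p63+/-, since more features were tested. Fits of the 6 arrays of a stage alone called 26 genes at E10, 26 at E11 and 8 at E12, with fewer arrays behind the spread, and Itgb4 at E12 (-1.74) had an adjusted p of 0.134.

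Same-numbered p63-/- and p63+/- arrays of a stage correlated by over 0.1 in 9 of 12 pairs (0.042 to 0.628). Of the 12 p63-/- arrays, 11 correlated best with their own number. The sample codes of same-numbered arrays are also neighbours at every stage. No label says that the numbers mark litters, and the main fit did not pair the arrays. With the replicate block, 205 genes were called at E10 and 1 for the interaction, 2 members passed at E11, and Col17a1 at E11 (-2.21) had an adjusted p of 0.0232.

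Leaving out 1 array at a time, all-gene calls ranged from 51 to 430 at E10, 28 to 93 at E11, 23 to 49 at E12, 23 to 52 at E13 and 1 to 9 for the interaction, and members called from 1 to 2 at E10 and at E11. Differences ranged for Itgb4 from -1.02 to -0.0102 at E10, -1.18 to -0.91 at E11, -2.01 to -1.56 at E12, -1.96 to -1.70 at E13, and 0.13 to 1.14 between E13 and E10 in p63-/-. Col17a1 ranged from -3.06 to -1.74 at E11. Itga6 ranged from -0.16 to 0.04 at E10, -0.11 to 0.20 at E11, -0.33 to 0.12 at E13, and -0.44 to 0.0131 between E13 and E10 in p63+/-. Lama5 ranged from -0.21 to 0.0629 at E11, -0.0643 to 0.17 at E12 and -0.0509 to 0.0433 on average. Lamb3 ranged from -0.57 to 0.53 at E12, -0.63 to -0.36 on average, and between E13 and E10 from 0.47 to 0.95 in p63-/- and 0.84 to 1.13 in p63+/-. Itga3 ranged from -0.42 to 0.0220 at E12 and -0.40 to -0.28 on average, Col7a1 from -0.78 to -0.62, Tln2 from 0.15 to 0.27 and Frem1 from -0.10 to 0.0415 on average. The 3 genes nearest in pattern changed with normalization for Fermt1, Itgb4 and Col7a1, of which 0 or 1 of 3 were shared with the authors' values.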
